A study of Mus musculus with 4 samples.

Results

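This account covers 29 genes of cholesterol synthesis and of the SREBP pathway in newborn mouse epidermis with a Cre-targeted Mettl14 gene, part of the methyltransferase complex behind N6-methyladenosine in RNA. The genes were chosen by name: 20 encode enzymes from acetyl-CoA to cholesterol or of the branch to geranylgeranyl diphosphate, 7 encode the SREBP factors and the proteins that control them, and 2 encode sterol transport proteins. All 29 of 29 were found among the 45803 gene symbols of the deposited table, and all 29 passed the filter on low values that left 13817 genes to test. RNA was sequenced from keratinocytes of the epidermis, the cells that make up most of the outer skin, of untreated mice at postnatal day 0. The conditional knockout (cKO) had the genotype K14Cre,Mettl14F/F, with both Mettl14 alleles floxed, and the control had K14Cre,Mettl14F/+, with 1 floxed allele. Both groups therefore carried Cre under the keratin 14 promoter, which is active in basal keratinocytes, and the control kept 1 intact allele. There were 2 control and 2 cKO libraries, with replicate numbers 1 and 2. Whether each library is a separate animal is not stated, and p-values therefore reflect the spread between these libraries, possibly technical.

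Cells build cholesterol from acetyl-CoA through mevalonate, farnesyl diphosphate, squalene and lanosterol. When sterols in the endoplasmic reticulum run low, Scap carries the SREBP precursors to the Golgi, where the proteases encoded by Mbtps1 and Mbtps2 release the active transcription factors. When sterols are plentiful, the Insig proteins hold Scap back. In the epidermis cholesterol is, beside ceramides and free fatty acids, a main lipid of the permeability barrier, and cholesterol sulfate is made in the upper layers.

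Values are FPKM, fragments per kilobase of transcript scaled to library depth, summed over the transcripts of a gene. FPKM is scaled by length, so levels can be compared roughly between genes. In a gene's sum, a short transcript carries more weight per read than a long one. Differences are cKO minus control on the log2(FPKM + 1) scale, which understates the change of low genes. Depth implied by the low values ranged from 16892916 to 25684671 reads or fragments per library. Each of the 29 genes then rested on 234 to 9741 recovered reads per library, a counting error of 6.54% at the lowest and 1.01% at the highest. Counting error was therefore small beside most differences between libraries. The targeted gene Mettl14 was at 7.00 and 6.40 FPKM in control 1 and 2, against 5.89 and 3.79 in cKO 1 and 2. Its log2 difference was -0.42 ± 0.26 (SE, limma's moderated test, adjusted p = 0.959), so it was not called lower. Its remaining RNA can come from outside the deleted part, but the source was not tested. The libraries also differed by replicate number: the mitochondrial share of recovered reads was 4.08% in control 1 and 2.90% in cKO 1, against 1.62% in control 2 and 1.14% in cKO 2.

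The labelled cell type was checked against marker genes. The 7 basal keratinocyte markers summed to 3836 and 4949.5 FPKM in control against 2453 and 3828 in cKO, and all 7 were lower in cKO within both replicate numbers. Of 7 suprabasal markers, Krt1 was listed at 0 in every library, and the others summed to 20779.8 and 8546 in control against 16862 and 8813 in cKO. The 8 leukocyte markers, all present, summed to 380 and 453 in control against 212 and 333 in cKO, and all 8 were lower within both numbers. The 10 sebocyte markers, from lipid-rich gland cells, summed to 228 and 228 in control against 247 and 284 in cKO, with Mc5r at 1.41 FPKM or less, and of 8 tested 7 lay above 0 and 6 were higher in cKO within both numbers. Of 5 adipocyte markers Lep was listed at 0 in every library and the list summed to at most 2.8. Fibroblast markers summed to 116 and 114 in control against 84.6 and 92.0 in cKO, melanocyte markers to 506 and 436 against 389 and 410, and endothelial markers to at most 1.8. In bulk RNA, fewer cells of a type and less RNA per cell cannot be told apart. The part of these shifts in the results on sterol genes was not tested.

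Of the 7 genes of the mevalonate arm 5 were higher in both cKO libraries than in both control libraries, the SREBP factors were near equal, and Insig1 and Npc1 were lower, but no gene passed the test. With limma's moderated test and Benjamini-Hochberg adjustment, 0 of 29 genes had an adjusted p under 0.05, as did 0% of all genes tested. At an unadjusted p under 0.05 there were 2 of 29, Pmvk and Nsdhl, both higher in cKO, where 3.29% of all genes were higher at that threshold and 4.96% differed in either direction. The log2 difference lay above 0 for 18 of 29 genes, with a median of 0.07, against 45.5% of all genes tested and a median of -0.03. With every library scaled to the same column sum, 15 of 29 lay above 0. Both cKO libraries lay above both control libraries for 9 of 29 genes, where the background is 16.2%, and below both for 3, where it is 16.6%. Together the groups did not overlap for 12 of 29 genes, against 32.8% of all genes tested. The difference was positive within both replicate numbers for 13 genes (31.8% of all genes tested) and negative within both for 6 (37.6%). With the replicate number as a block in the fit (the labels name no pairing), limma called 3 of 29 genes, Mvk, Pmvk and Mvd, all higher in cKO, where 4.53% of all genes were called higher and 6.51% in either direction. On simulated libraries with this spread, 200 of 13817 genes were changed in FPKM + 1. There limma called 0% of those changed 2-fold and 54% of those changed 4-fold. Each simulated library varied on its own, while here same-numbered libraries deviated from their group means alike (r = 0.722 across genes).

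**Figure D1:**
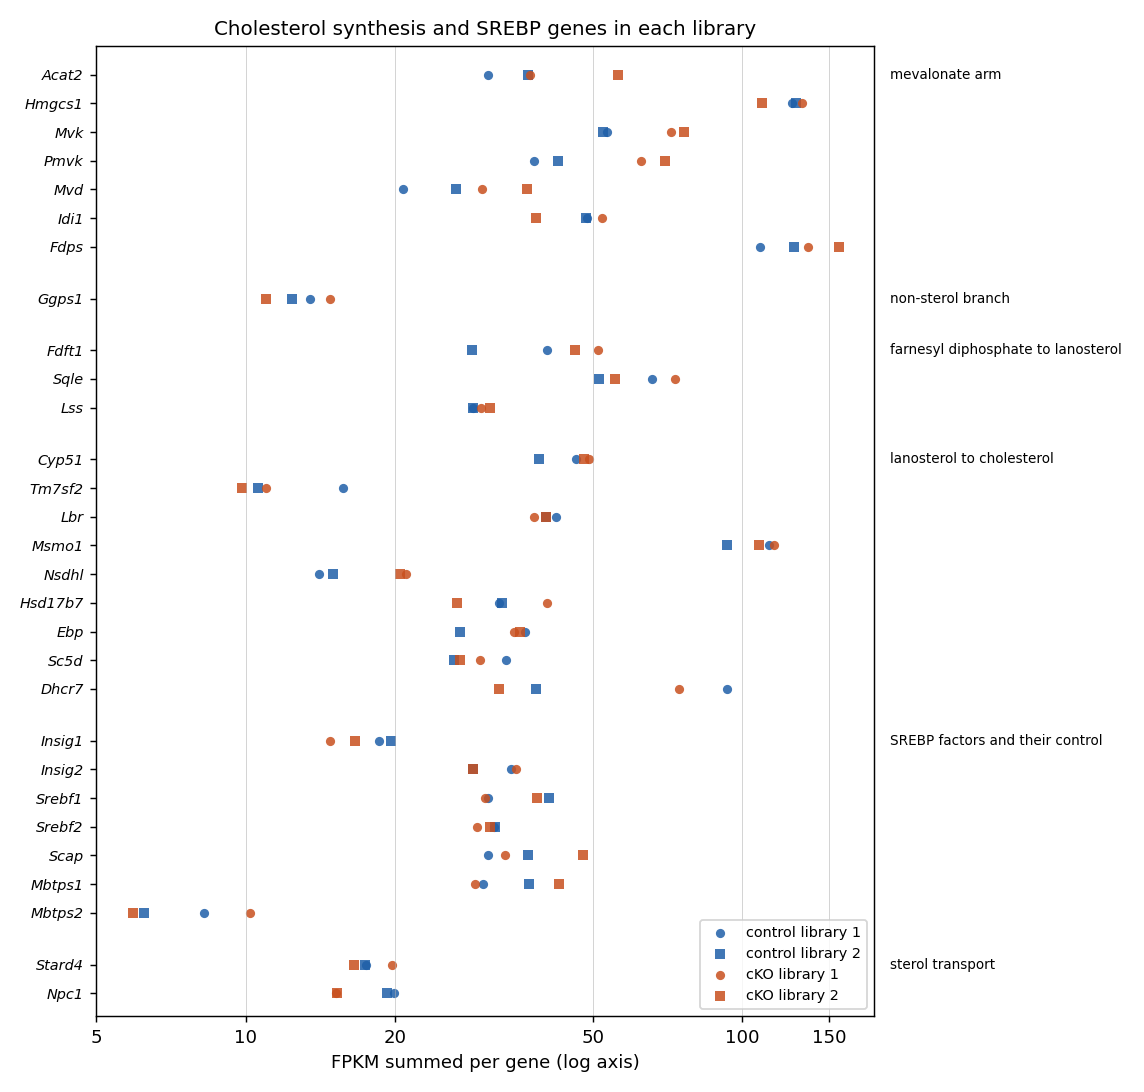
FPKM of each of the 29 genes on a log axis, with 1 point per library (blue control, orange cKO, circles for library 1 and squares for library 2), grouped by role. The cKO points lie to the right of both control points for Acat2, Mvk, Pmvk, Mvd, Fdps, Fdft1, Lss, Cyp51 and Nsdhl. Dhcr7 splits by replicate number.

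The mevalonate arm turns acetyl-CoA into farnesyl diphosphate, the last intermediate shared by sterols and protein prenylation. Its 7 genes summed to 426 and 463 FPKM in control against 522 and 544 in cKO, so the groups did not overlap. Of these 7, 5 were higher in cKO without overlap (16.2% of all genes tested), 0 were lower without overlap (16.6%), and 0 passed the test, with a median log2 difference of 0.43.

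Pmvk, phosphomevalonate kinase (ENSMUSG00000027952, GRCm38 chromosome 3, 89454541 to 89469013), had the largest difference of the 29. It measured 38.2 and 42.6 FPKM in control against 62.4 and 69.8 in cKO, and the libraries did not overlap. The log2 difference was 0.70 ± 0.21 (SE), with 0.70 within each replicate number (limma adjusted p = 0.959).

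Mvk, mevalonate kinase, which acts just before Pmvk (ENSMUSG00000041939, chromosome 5, 114444269 to 114460591), measured 53.4 and 52.4 FPKM in control against 72.1 and 76.5 in cKO. The 2 control values differed by less than 1 FPKM and both cKO values lay well above them. Its difference was 0.48 ± 0.20, with 0.43 within number 1 and 0.54 within number 2 (limma adjusted p = 0.959). Mvd, the decarboxylase that follows Pmvk and yields isopentenyl diphosphate (ENSMUSG00000006517, chromosome 8, 122433601 to 122443422), measured 20.8 and 26.5 in control against 29.9 and 36.9 in cKO. Library 2 was the higher one in both groups, and the difference was 0.48 ± 0.23, with 0.51 and 0.46 within the numbers (adjusted p = 0.959). By group means, the RNA of the genes for these 3 consecutive steps was 1.40 to 1.64 times as high in cKO. None of the 3 passed the test without the replicate block, and enzyme levels were not measured.

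Fdps, farnesyl diphosphate synthase, had the highest mean over all libraries of the 29 genes. It measured 109 and 127 FPKM in control against 136 and 157 in cKO (difference 0.31 ± 0.24). Acat2, a thiolase that joins acetyl-CoA units, measured 30.8 and 37.1 in control against 37.3 and 56.3 in cKO. For Acat2 the lower cKO library sat just above the higher control library, so its separation rests on a small gap (difference 0.43 ± 0.27). Leaving out 1 library moved the Acat2 difference between 0.14 (without cKO replicate 2) and 0.72 (without cKO replicate 1).

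Not every gene of the arm had this pattern. Hmgcs1, HMG-CoA synthase and second by mean over all libraries, measured 126 and 128 FPKM in control against 132 and 109.6 in cKO. Both of its control values lay above those of Fdps. The Hmgcs1 difference was -0.08 with a 95% interval from -0.67 to 0.51. Idi1, the isomerase of isopentenyl diphosphate, measured 48.6 and 48.4 in control against 52.2 and 38.5 in cKO (-0.11, interval -0.69 to 0.47). In both genes the control libraries were nearly equal, cKO library 1 lay above them and cKO library 2 below them. Ggps1, which makes geranylgeranyl diphosphate off the sterol path, had the same order, with 13.5 and 12.4 in control against 14.8 and 11.0 in cKO (-0.01 ± 0.23). Within a library, the Pmvk to Hmgcs1 ratio was 0.302 and 0.332 in control against 0.472 and 0.637 in cKO, a description of unequal change between these genes.

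Promoters are shown for the 3 consecutive kinase and decarboxylase genes, for Nsdhl, which had the other unadjusted p under 0.05, and for Hmgcs1 as a gene of the same arm whose groups overlapped. RefSeq promoter windows (GRCm38.p6, 250 bases before to 50 after a start site, 5′ to 3′ on the gene's strand) matched 24 of the 29 genes, with 32 windows. Capitals mark TCACNCCAC, the letters of a sterol regulatory element that SREBP binds, and CCAAT, the box bound by NF-Y, a factor that SREBP works with at many promoters, on both strands.
Mvk (chr5:114444019-114444318, plus strand): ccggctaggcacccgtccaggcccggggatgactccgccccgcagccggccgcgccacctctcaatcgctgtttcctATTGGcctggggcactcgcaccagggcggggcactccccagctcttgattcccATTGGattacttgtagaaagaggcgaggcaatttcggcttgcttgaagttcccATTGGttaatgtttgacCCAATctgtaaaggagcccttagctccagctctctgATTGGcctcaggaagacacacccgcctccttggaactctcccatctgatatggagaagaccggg
Pmvk (chr3:89454291-89454590, plus strand): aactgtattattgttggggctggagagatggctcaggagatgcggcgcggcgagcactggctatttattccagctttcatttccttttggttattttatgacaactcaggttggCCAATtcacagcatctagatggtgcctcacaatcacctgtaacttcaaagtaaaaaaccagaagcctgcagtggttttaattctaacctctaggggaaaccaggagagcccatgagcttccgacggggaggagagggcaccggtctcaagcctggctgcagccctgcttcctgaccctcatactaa
Mvd (chr8:122443373-122443672, minus strand): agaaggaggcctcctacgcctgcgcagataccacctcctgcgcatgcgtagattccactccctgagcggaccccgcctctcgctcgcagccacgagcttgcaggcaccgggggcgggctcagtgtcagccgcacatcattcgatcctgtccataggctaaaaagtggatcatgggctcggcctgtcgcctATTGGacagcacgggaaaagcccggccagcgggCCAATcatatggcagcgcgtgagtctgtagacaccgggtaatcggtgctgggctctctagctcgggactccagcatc
Nsdhl (chrX:72918271-72918570, plus strand): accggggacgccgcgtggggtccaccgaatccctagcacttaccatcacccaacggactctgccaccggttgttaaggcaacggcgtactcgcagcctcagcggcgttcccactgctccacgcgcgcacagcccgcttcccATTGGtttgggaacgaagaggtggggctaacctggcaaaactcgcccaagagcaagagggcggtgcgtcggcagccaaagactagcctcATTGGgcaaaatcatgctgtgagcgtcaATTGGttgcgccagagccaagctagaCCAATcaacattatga
Hmgcs1 (chr13:119690101-119690400, plus strand): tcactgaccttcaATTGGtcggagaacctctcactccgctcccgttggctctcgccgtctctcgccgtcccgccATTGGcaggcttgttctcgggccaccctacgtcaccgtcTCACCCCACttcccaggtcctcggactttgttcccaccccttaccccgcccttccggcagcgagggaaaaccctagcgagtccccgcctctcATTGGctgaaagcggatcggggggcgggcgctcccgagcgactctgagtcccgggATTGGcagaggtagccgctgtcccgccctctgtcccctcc
TCACNCCAC was found in 1 of the 24 genes, Hmgcs1, 137 bases before the start site (4.17%), against 1.37% of the 9556 tested genes with a window. CCAAT was found in 20 of the 24 genes (83.3%), against 42.7% of those tested genes. Mvk held 5 CCAAT boxes, Nsdhl and Hmgcs1 4 each, Mvd 2 and the upstream Pmvk window 1. GGGCGG, the letters of an Sp1 site, was found in 21 of 24 (87.5%) against 68.8%, and the E-box CACGTG in 5 of 24 (20.8%) against 11.8%. No match of one motif overlapped a match of another in the 32 windows. In the RNA data Hmgcs1, with 4 CCAAT boxes and the TCACNCCAC match, had overlapping groups. Mvk with 5 boxes, Nsdhl with 4 and Mvd with 2 were higher in cKO without overlap. So was Pmvk, with 1 box in its upstream window and 0 matches of any of these motifs in its other window. The genes shown were chosen with their RNA values known. Among genes not shown, Ggps1, Hsd17b7 and Msmo1 held 3 CCAAT boxes each and overlapped between the groups. Acat2 with 0 boxes, and Lss and Cyp51 with 1 each, were higher in cKO without overlap, as were 16.2% of all genes tested. A relation between these motifs and the RNA difference was not tested. A match is a description of the letters and not a site in use.

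Fdft1, Sqle and Lss carry farnesyl diphosphate through squalene to lanosterol. Fdft1, squalene synthase, the branch point enzyme committed to sterols, measured 40.4 and 28.6 FPKM in control against 51.3 and 46.0 in cKO. The groups did not overlap, though library 1 was higher than library 2 in each, and the difference was 0.50 ± 0.25, with 0.34 and 0.67 within the numbers (limma adjusted p = 0.959). Sqle, squalene epoxidase, measured 65.9 and 51.4 in control against 73.3 and 55.5 in cKO. For Sqle the spread between the numbered libraries was larger than the genotype difference of 0.13 ± 0.26, and the groups overlapped. Lss, lanosterol synthase, measured 28.7 and 28.7 in control against 29.8 and 31.1 in cKO, a difference of 0.08 ± 0.19 on the gene sum. With equal column sums the groups of Fdft1 and of Lss overlapped.

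**Figure D2:**
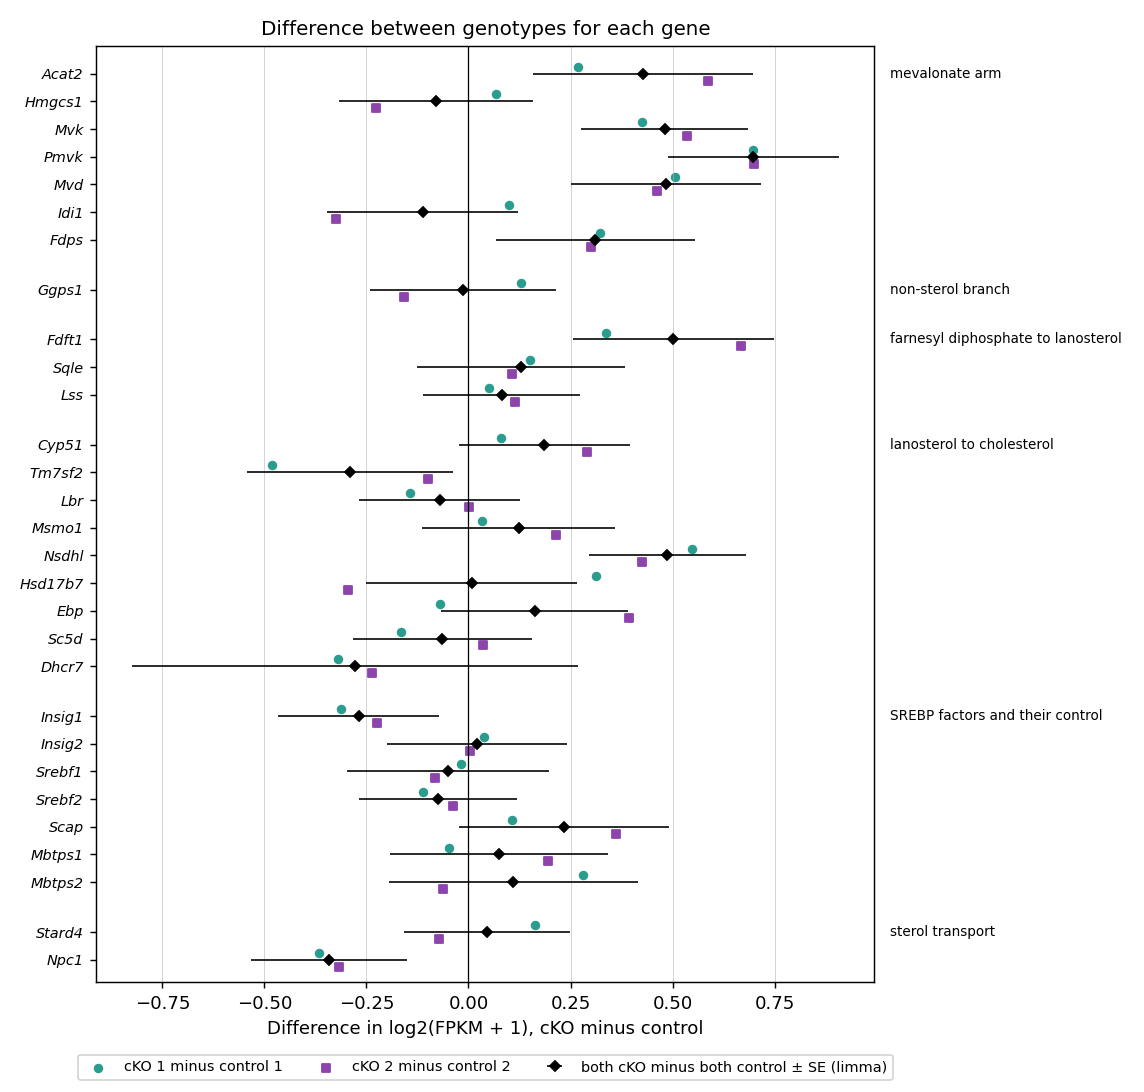
Difference in log2(FPKM + 1) between cKO and control for each gene: black diamonds with bars show limma's estimate ± SE over both libraries of each group, green circles cKO 1 minus control 1 and purple squares cKO 2 minus control 2. Pmvk, Mvk, Mvd, Fdft1 and Nsdhl are among the genes right of 0 within both replicate numbers, and Insig1 and Npc1 among those left of 0 in both.

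From lanosterol to cholesterol, Nsdhl was the gene that stood out. Nsdhl, the X-linked sterol dehydrogenase of C4 demethylation (ENSMUSG00000031349, chromosome X, 72918557 to 72958514), measured 14.1 and 15.0 FPKM in control against 21.02 and 20.4 in cKO. The 2 libraries of each group were close to each other and the groups were well apart, with a difference of 0.49 ± 0.19 (limma adjusted p = 0.959). The other enzymes of that demethylation step, Msmo1 and Hsd17b7, measured 113 and 93.2 against 116 and 108, and 32.4 and 32.9 against 40.4 and 26.6. Msmo1 and Hsd17b7 overlapped between the groups, with differences of 0.12 ± 0.24 and 0.01 ± 0.26. Cyp51, the lanosterol demethylase, measured 46.4 and 39.0 in control against 49.1 and 47.9 in cKO (0.19 ± 0.21). Its groups did not overlap as deposited, but did with median-ratio scaling or equal column sums, and the difference was 0.06 without control replicate 2.

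The remaining late enzymes showed no common direction. Ebp, the sterol isomerase, measured 36.5 and 27.0 FPKM in control against 34.7 and 35.8 in cKO (0.16 ± 0.23). Sc5d, the sterol desaturase, measured 33.4 and 26.3 against 29.7 and 27.0 (-0.06 ± 0.22), and 1 of its 2 transcripts went from 12.1 in control 1 to 1.44 in control 2 and to 0 and 2.78 in cKO. Lbr, a lamin B receptor with sterol reductase activity, measured 42.1 and 40.3 against 38.1 and 40.4 (-0.07 ± 0.20). Tm7sf2, the second enzyme of that reduction, had the lowest mean over all libraries among the enzymes from acetyl-CoA to cholesterol. It measured 15.7 and 10.6 against 11.0 and 9.81 (-0.29 ± 0.25). Its difference was -0.02 without control replicate 1. The groups overlapped for each of these genes. Over the 9 genes of this stretch, 2 were higher in cKO without overlap, a share near the 16.2% of all genes tested, and 0 lower (16.6%), and the median difference was 0.01.

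Dhcr7, the last reductase of the pathway, split by replicate number more than by genotype. It measured 93.4 and 38.4 FPKM in control against 74.6 and 32.5 in cKO, so the number 2 minus number 1 difference was -1.22 against a genotype difference of -0.28 ± 0.55. Most of that split came from a 4-exon transcript of 721 bases annotated for nonsense-mediated decay, listed at 47.4 and 10.9 in control against 36.8 and 7.34 in cKO. Protein-coding transcripts of Dhcr7 summed to 42.8 and 25.2 in control against 35.6 and 23.9 in cKO. A short transcript gains more FPKM per read than a long one, so the gene sum gives that transcript a large weight. Across the 29 genes the replicate number moved the level by more than the genotype did for 16 (55.2%), against 62.5% of all genes tested.

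Transcript classes bore on Lss more than on any other of these genes. In Lss, transcripts annotated as retained introns made up 56.3% and 45.7% of the gene's FPKM in control and 45.9% and 33.4% in cKO. Its protein-coding transcripts summed to 12.6 and 15.6 FPKM in control against 16.1 and 20.7 in cKO, without overlap, while the retained-intron sum was 16.2 and 13.1 against 13.7 and 10.4. On coding transcripts alone the Lss difference was 0.36 ± 0.24 (limma adjusted p = 0.938), against 0.08 on the gene sum. Cyp51 had the same pattern on a smaller scale: its retained-intron share was 10.5% and 4.9% in control against 2.9% and 1.8% in cKO, and its coding sum 41.5 and 37.1 against 47.7 and 47.1.

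Of the 18 genes with any retained-intron value, 14 had a lower share in cKO within both replicate numbers (77.8%), against 42.7% of 5215 tested genes with such transcripts. The shares of the 18 genes were compared after rounding and those of all genes before it. Scap, at 2.4% in control 2 and in cKO 2 after rounding, was therefore not counted. Over the summed FPKM of the 29 genes the share was 6.93% and 5.30% in control against 5.44% and 3.42% in cKO. The share also followed the replicate number, and over the whole table it was 4.66% and 2.83% in control against 4.01% and 2.28% in cKO. The part of RNA quality in this shift was not tested. With protein-coding transcripts alone, 10 of the 29 genes lay higher in cKO without overlap, where 18.3% of all genes did, and 3 lay lower, where 15.1% did. The tenth gene was Msmo1, at 98.2 and 82.2 against 103 and 102 on coding transcripts.

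**Figure D3:**
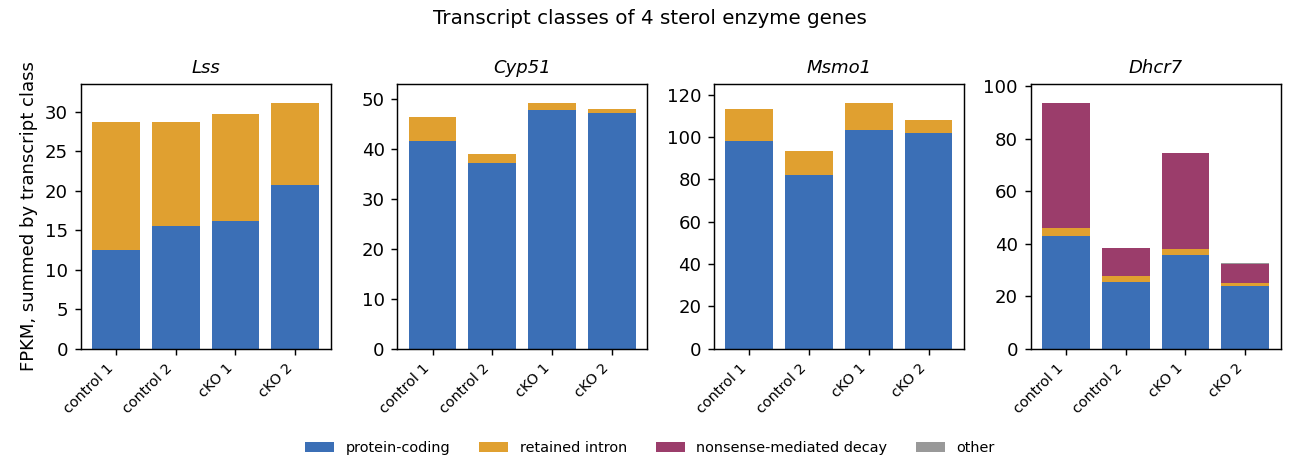
Stacked bars of FPKM by annotated transcript class for Lss, Cyp51, Msmo1 and Dhcr7 in each library, on linear axes from 0. The protein-coding part of Lss is higher in both cKO libraries while its retained-intron part is lower, and the decay-annotated part of Dhcr7 is larger in the libraries numbered 1.

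The SREBP factors themselves were near equal between genotypes. Srebf2, which encodes the factor that mainly drives cholesterol synthesis genes, measured 31.6 and 31.8 FPKM in control against 29.2 and 31.0 in cKO. The cKO values lay just below the control values, a difference of -0.07 ± 0.19 with a 95% interval from -0.55 to 0.40. Srebf1, whose products mainly drive fatty acid synthesis genes, measured 30.7 and 40.9 in control against 30.3 and 38.6 in cKO (-0.05 ± 0.25). In Srebf1 the libraries numbered 2 were higher in both groups, by more than the genotype difference.

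Insig1, which retains Scap in the endoplasmic reticulum and is itself a target of SREBP, measured 18.6 and 19.6 FPKM in control against 14.8 and 16.6 in cKO. Both cKO libraries lay below both control libraries, and the difference was -0.27 ± 0.20, with -0.31 and -0.22 within the numbers (limma adjusted p = 0.959). Its paralog Insig2 measured 34.2 and 28.7 in control against 35.1 and 28.7 in cKO, so the same-numbered libraries were almost equal (0.02 ± 0.22). Scap, the sterol sensor that escorts SREBP, measured 30.8 and 37.0 in control against 33.2 and 47.8 in cKO (0.23 ± 0.26). Mbtps1, the site 1 protease, measured 29.99 and 37.3 against 29.0 and 42.9, and Mbtps2, the site 2 protease and the least abundant of the 29 genes, 8.23 and 6.22 against 10.2 and 5.92. Both protease genes overlapped between the groups, with differences of 0.07 ± 0.27 and 0.11 ± 0.30. Of these 7 genes, 0 lay higher in cKO without overlap (16.2% of all genes tested) and 2, Insig1 and Srebf2, lay lower (16.6%), and the median difference was 0.02. With equal column sums Scap was higher without overlap and Srebf2 overlapped.

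Of the sterol transport genes, Npc1, which moves cholesterol out of lysosomes, had the largest difference below 0 among the 29 genes. It measured 19.9 and 19.3 FPKM in control against 15.2 and 15.3 in cKO. The libraries of each group were nearly equal and the groups did not overlap, with a difference of -0.34 ± 0.19 (limma adjusted p = 0.959). Stard4, a cytosolic sterol carrier and a target of SREBP, measured 17.5 and 17.4 in control against 19.7 and 16.5 in cKO (0.05 ± 0.20), with cKO library 1 above and cKO library 2 below both control values.

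**Figure D4:**
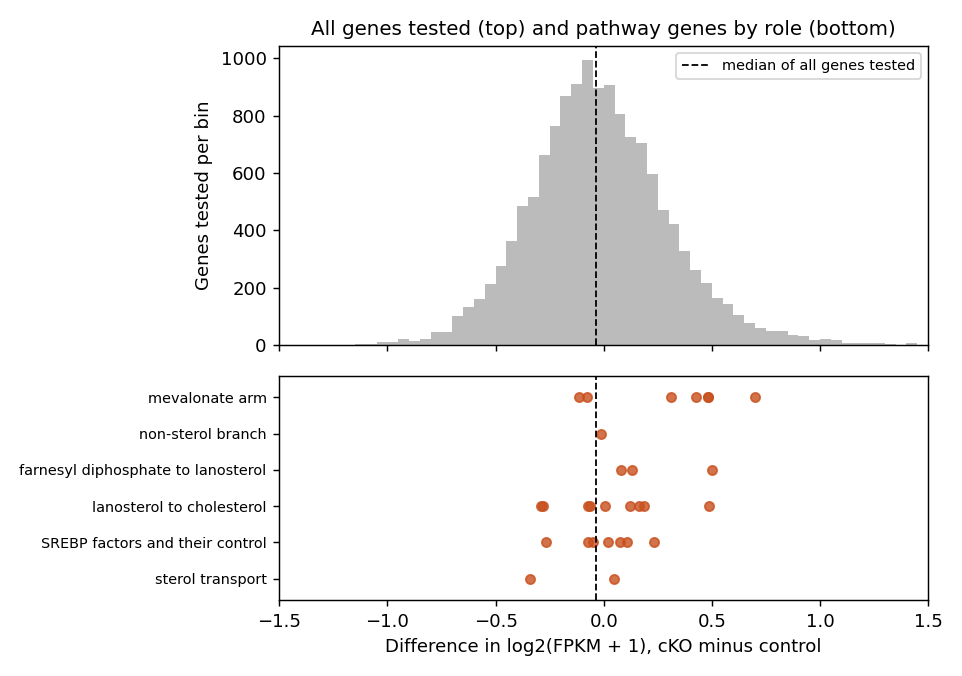
Histogram of the log2 difference between cKO and control for all 13817 genes tested (top, 30 genes beyond the axis not drawn) and the 29 genes by role (bottom, 1 point per gene), with the median of all genes as a dashed line. Pmvk, of the mevalonate arm, lies furthest to the right, 5 of the 7 genes of that arm lie above 0, and the SREBP factors and their regulators lie around 0.

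Other genes of sterol and lipid metabolism, 47 in 5 lists, gave 46 in the table and 43 tested. None passed limma's adjusted test, 1 (Nceh1, a cholesteryl ester hydrolase, lower in cKO) had an unadjusted p under 0.05, and 23 lay above 0, with a median of 0.03. Of 11 SREBP1 targets of fatty acid synthesis, 8 lay above 0 (45.5% of all genes tested) and 4 were higher without overlap (16.2%). Scd1, a stearoyl-CoA desaturase, measured 121 and 177 FPKM in control against 132 and 219 in cKO, and Acly, which makes cytosolic acetyl-CoA, 127 and 131 against 136 and 149. Acly did not overlap between the groups, while Scd1 followed the replicate number.

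All 4 tested genes of the LXR and efflux list lay below 0, where 45.5% of all genes tested lay above it, with a median of -0.25. The groups were without overlap for 0 of them, against 32.8% of all genes tested. For all 4 the replicate number moved the level by more than the genotype did. Nr1h2, the LXRβ gene, measured 23.2 and 30.5 FPKM in control against 24.1 and 27.7 in cKO, and Mylip, a ubiquitin ligase gene and LXR target, 7.97 and 12.7 against 5.12 and 8.75. Of 10 tested genes of sterol storage, sulfation and transport, 6 lay above 0. Sult2b1, the cholesterol sulfotransferase of the upper epidermis, measured 58.0 and 72.3 in control against 74.3 and 75.8 in cKO, and Npc2, the lysosomal partner of Npc1, 31.5 and 38.0 against 32.0 and 41.1. Sult2b1 was higher without overlap by a small gap and Npc2 overlapped.

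Of 11 isoprenoid-using genes, 6 lay above 0, with Fnta, a prenyltransferase subunit, at 31.7 and 43.7 FPKM in control against 38.2 and 51.6 in cKO, and Rabggtb, of the Rab prenylating enzyme, at 44.5 and 33.6 against 43.4 and 42.1. Both overlapped between the groups. Of 7 tested genes of sterol-regulated degradation and signalling, 3 lay above 0. Ufd1l, a cofactor in extracting proteins from membranes for degradation, measured 38.9 and 34.4 against 39.8 and 34.4, with same-numbered libraries nearly equal.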

How the data were processed

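RNA sequencing of 2 control and 2 cKO libraries was deposited as 1 table of 110295 transcripts whose header names no unit. The submitters' processing notes list fastp, HISAT2, HTSeq and GRCm38, with no role, order or version, and the way transcript values were made is not given in the sources used here. Per library, each deposited value times its GENCODE M21 transcript length in kilobases summed to between 1015549.9 and 1021998, so the unit was inferred to be FPKM, or RPKM, from which it cannot be separated. Columns named WT were matched to the control by group and number. Dates in place of symbols (162 rows) were looked up by transcript ID.

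FPKM were summed per symbol. Genes that reached 1 FPKM in 2 or more libraries were tested on log2(FPKM + 1) with limma 3.58.1 (R 4.3.3, mean-variance trend, genotype as the only term, 2 residual degrees of freedom), with p adjusted by Benjamini-Hochberg over all 13817 genes at 0.05. Intervals are limma's at 95%, unadjusted. Low values were whole multiples of 1 read in 94.5% to 95.2% of cases, within 0.2 reads, which gave the depths. The test was tested on simulated data. The alternatives were other scalings, pseudocount, filters and transcript sums, no variance trend, the replicate number as a block, leaving out each library and, chosen after seeing the data, limma-voom on recovered reads and protein-coding transcripts only. All 29 genes are named, with the 2 most abundant of each list of related genes, except 1 that is not reported here. The genes and lists were chosen with earlier results of these data known. Nceh1 and the transcript classes were picked out after their values were seen. Without stated strand use, reads of antisense partners cannot be told apart. Python 3.11.15, pandas 2.3.3 and matplotlib 3.10.9 were used.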

Additional observations from a re-analysis of the deposited data

How the results depend on the processing

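With all 4 libraries and no replicate block, each scaling, pseudocount, filter, transcript sum and limma-voom called 0 genes, of the 29 and of all. With the replicate number as a block, limma called 900 genes (6.51% of all) and 3 of the 29, Mvk, Pmvk and Mvd (adjusted p = 0.0383, 0.0114 and 0.0455). The labels do not say that the number marks a pair. Deviations of same-numbered libraries from their group means correlated across genes at r = 0.722, and with 2 pairs this is a hint only. Leaving out 1 library called 9 to 71 genes over all and 0 of the 29, with 1 library left in a group that is assumed to vary like the others. The number of the 29 genes above 0 then lay between 14 and 21.

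The median difference of the 29 genes was 0.018 with equal column sums, 0.155 with the most abundant transcript only, 0.136 with protein-coding transcripts only, and between -0.029 and 0.160 with 1 library left out. With equal column sums 7 genes were higher in cKO without overlap (16.2% of all genes) and 2 lower (17.9%), and with median-ratio scaling 8 (17.2%) and 4 (16.5%).

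The filters, the variance trend and the block cannot move a gene's difference. Under the 6 alternatives that can, 167 of 174 single-gene values kept their direction. The reversed values were Hsd17b7 -0.05, Insig2 -0.04 and Stard4 -0.01 with equal column sums, Sc5d 0.21 and Insig2 -0.05 with the most abundant transcript, and Sc5d 0.11 and Insig2 -0.04 with limma-voom; the cause was not tested. With 1 library left out, 14 of the 29 genes kept their direction: Pmvk (0.62 to 0.78), Mvk (0.44 to 0.52), Nsdhl (0.45 to 0.53), Mvd (0.31 to 0.65), Fdft1 (0.26 to 0.74), Insig1 (-0.35 to -0.19), Npc1 (-0.36 to -0.32), Acat2 (0.14 to 0.72), Fdps (0.20 to 0.42), Lss (0.05 to 0.11), Cyp51 (0.06 to 0.31), Tm7sf2 (-0.56 to -0.02), Lbr (-0.11 to -0.03) and Srebf2 (-0.11 to -0.03). The other 15 turned for at least 1 library. Their ranges were Dhcr7 -0.91 to 0.35, Ebp -0.05 to 0.37, Ggps1 -0.21 to 0.19, Hmgcs1 -0.21 to 0.05, Hsd17b7 -0.28 to 0.30 and Idi1 -0.33 to 0.10. Insig2 ranged from -0.12 to 0.16, Mbtps1 from -0.20 to 0.35, Mbtps2 from -0.24 to 0.46, Msmo1 from -0.02 to 0.26 and Sc5d from -0.23 to 0.10. Scap ranged from -0.02 to 0.49, Sqle from -0.07 to 0.33, Srebf1 from -0.25 to 0.15 and Stard4 from -0.07 to 0.16.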

Other observations

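The 6 of the 29 genes whose most abundant transcript has at least 18 exons (Lss, Srebf1, Srebf2, Scap, Mbtps1 and Npc1) had a median log2 difference of 0.01, and the 23 with fewer exons had 0.11. Over all tested genes with a known exon number the medians were -0.13 for 2086 genes with at least 18 exons and -0.01 for 11698 with fewer. Across the 29 genes, the difference between genotypes was set against the length of the most abundant transcript. Spearman rho was -0.35 and Pearson r was -0.37. With the exon number of that transcript, rho was 0.0 and r was -0.14. These values are a description only, since the points share the same 4 libraries.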
